A study of Mus musculus with 9 samples.

Results

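Glucose, phosphate and related organic solutes that pass the glomerular filter are taken back by transporters of 5 solute carrier families, and the RNA of these families was followed across 9 mouse kidney libraries. The set was chosen by symbol alone, as every row present in both deposited count tables whose name is Slc2a, Slc5a, Slc17a, Slc20a or Slc34a followed by a number. It holds 37 of the 52160 symbols kept: 12 of Slc2, 11 of Slc5, 9 of Slc17, 2 of Slc20 and 3 of Slc34. RNA came from whole kidney of mice at 16 weeks of age on a C57Bl/6N background, with 3 libraries in each of 3 groups. The groups were wild type (WT), YBX1ΔPod, in which Ybx1 was deleted from podocytes (ΔPod), and YBX1K2A, in which podocytes carry a Ybx1 form that is not secreted because of the substitutions K299A and K302A in exon 7 (K2A). Ybx1 encodes a nucleic acid binding cold shock protein that cells can also secrete, and the series title names crosstalk between glomerulus and tubule as the question. The labels name no Cre line, no Cre or floxed control and no sex, and they give a supplier for WT animals only. Podocytes, the cells of the glomerular filter, are a small part of the kidney, and the transporters described here are mostly known from tubule cells.

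Slc5 proteins couple sugar, inositol, monocarboxylate or vitamin uptake to sodium, and Slc2 proteins (GLUT) carry sugars or urate down their gradient. In the proximal tubule, Slc5a2 (SGLT2) and Slc5a1 (SGLT1) take glucose up from the lumen and Slc2a2 (GLUT2) lets it out towards the blood. Slc34a1 (NaPi-IIa), Slc34a3 (NaPi-IIc) and Slc20a2 (PiT-2) take up phosphate with sodium at the brush border, under control of parathyroid hormone and of FGF23 with its co-receptor Klotho. Slc17a1 (NPT1) and Slc17a3 (NPT4) were first named as sodium-phosphate transporters and are known as exporters of urate and other organic anions. Several renal transporters and metabolic enzymes of rodents are known to differ between males and females.

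The libraries differed in ways that run beside the groups, and these are given first. Total counts ran from 30776806 to 46852490. Counts of 4 Y-linked genes were 3404 to 4148 in WT, 0 in every ΔPod library and 0 to 22 in K2A, while Xist, which is transcribed from the inactive X chromosome, had 0 counts in WT and 470 to 13675 in the other 6 libraries. The WT libraries therefore show a male pattern and the 6 others a female one, and genotype and sex cannot be told apart in either comparison with WT. Of 13 male-biased kidney genes, 12 fell in ΔPod and 10 in K2A, and of 6 female-biased genes 3 rose in each. Over all tested genes 0.587% fell in ΔPod and 0.526% in K2A, and 0.399% and 0.321% rose. The same 4 Y-linked genes are among the male-biased genes that fell, and Xist is in the female-biased list. These counts therefore repeat in part the values above. WT 1, WT 3, ΔPod 3 and K2A 3 had relatively more counts in long genes and WT 2, ΔPod 1, ΔPod 2, K2A 1 and K2A 2 relatively more in short ones. On the first principal component, with 71.5% of the variance, libraries with more in long genes were at -96.5 to -91.3. Those with more in short genes were at 62.6 to 163, except WT 2, which lay between at -3.41. Ribosomal protein genes took 0.999% to 1.17% of counts in libraries with more in long genes. In those with more in short genes, WT 2 included, they took 2.44% to 7.86%. Summed adipocyte markers (7 genes) were 31.8 to 79.7 CPM (counts relative to the TMM-normalized library total) in WT, 23.1 to 522 in ΔPod and 43.2 to 1158 in K2A, and summed urothelium markers (5 genes) exceeded 20 CPM in ΔPod 1, K2A 1 and K2A 2. None of these markers passed the test (edgeR; 5 adipocyte and 0 urothelium markers had an unadjusted p under 0.05 in each comparison, and DESeq2 called 4 and 0), and Ucp1 was at 0 in all WT libraries. Over all tested genes 13.8% in ΔPod and 10.6% in K2A had an unadjusted p under 0.05 by edgeR. DESeq2 called 5.57% and 5.07% of all, and these shares are the background for each gene list below. Ybx1 itself, deleted or altered in podocytes alone, was at 1185 to 1585 CPM in WT, 605 to 1167 in ΔPod and 554 to 1152 in K2A, and passed the test in neither comparison (edgeR quasi-likelihood, adjusted p = 0.465 and 0.725).

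The clearest difference in the set lies in a cluster of Slc17 genes on chromosome 13, so the sequences just before annotated RefSeq starts of Slc17a2, Slc17a3 and Slc17a1 are shown ahead of the values. The genes lie in the order Slc17a2, Slc17a3, Slc17a1, Slc17a4 within 108017 bases, with 14253, 7033 and 159 bases between neighbouring ends. Slc17a2 (ENSMUSG00000036110.14) spans chr13:23806993-23825180, Slc17a3 (ENSMUSG00000036083.15) chr13:23839434-23860716 and Slc17a1 (ENSMUSG00000021335.13) chr13:23867750-23895730, all on the plus strand of mm10, and Slc17a4 (ENSMUSG00000021336.17) spans chr13:23895890-23915009 on the minus strand (GENCODE vM21). The 250 bases before each RefSeq start (GRCm38.p6, plus strand, 5′ to 3′) are printed in lower case (both Slc17a1 windows lie inside the span given for that gene, and Slc17a4 is shown without one), with matches to the STAT motif TTCNNNGAA in capitals. This motif is the textbook binding sequence of the STAT transcription factors and reads the same on both strands.
Slc17a2, chr13:23806743-23806992: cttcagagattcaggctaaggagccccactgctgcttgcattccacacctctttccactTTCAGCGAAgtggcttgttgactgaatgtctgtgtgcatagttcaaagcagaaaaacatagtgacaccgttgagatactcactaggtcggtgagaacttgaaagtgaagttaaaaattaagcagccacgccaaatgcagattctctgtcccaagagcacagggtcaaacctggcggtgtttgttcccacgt
Slc17a3, chr13:23839184-23839433: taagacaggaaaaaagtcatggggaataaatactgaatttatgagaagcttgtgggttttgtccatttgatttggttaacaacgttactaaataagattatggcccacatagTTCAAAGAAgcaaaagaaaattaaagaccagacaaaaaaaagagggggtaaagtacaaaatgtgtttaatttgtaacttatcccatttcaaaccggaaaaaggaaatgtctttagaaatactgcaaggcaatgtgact
Slc17a1, first start, chr13:23868768-23869017: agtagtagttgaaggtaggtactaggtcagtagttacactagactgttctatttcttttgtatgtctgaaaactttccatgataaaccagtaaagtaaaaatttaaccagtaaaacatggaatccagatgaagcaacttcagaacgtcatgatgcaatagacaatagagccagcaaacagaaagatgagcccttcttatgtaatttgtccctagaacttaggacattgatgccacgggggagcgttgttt
Slc17a1, second start, chr13:23870023-23870272: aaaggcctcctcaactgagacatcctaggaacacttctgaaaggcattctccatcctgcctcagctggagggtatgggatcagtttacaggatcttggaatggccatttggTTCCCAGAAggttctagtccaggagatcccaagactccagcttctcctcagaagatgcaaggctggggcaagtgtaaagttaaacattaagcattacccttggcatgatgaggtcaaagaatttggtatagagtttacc

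The motif was found once before Slc17a2 (TTCAGCGAA), once before Slc17a3 (TTCAAAGAA) and once before the second Slc17a1 start (TTCCCAGAA), and not in the window of the first. Among the 29 of 37 genes of the set that have a RefSeq start window of this length, these 3 were the ones with a match, in 3 of the set's 35 windows. The motif occurs in 7.02% of the 32851 start windows in the RefSeq table. The letters AGAACA, part of the androgen receptor motif, were found on either strand in 5 of the 35 windows (Slc17a1, Slc20a1, Slc2a7, Slc34a1 and Slc5a1) against 16.1% of all windows. TATAAA, the core of the TATA box, was found in 1 window (Slc5a7) against 12.4%. These are matches of letters in a window and not measured binding.

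Slc17a2 (NPT3) was nearly absent from WT and present in all 6 other libraries. Its level was 0.166, 0.229 and 0.124 CPM in WT 1 to 3, from 6, 8 and 5 counts. It was 27.9, 29.1 and 12.4 CPM in ΔPod 1 to 3, and 20.6, 14.1 and 19.9 CPM in K2A 1 to 3. The lowest mutant library was far above the highest WT library, and the ΔPod and K2A ranges overlapped. Slc17a2 rose in ΔPod with a log2 fold change of 7.04 (SE 0.51, adjusted p = 0.00243) and in K2A with one of 6.70 (SE 0.51, adjusted p = 0.00447) by the edgeR quasi-likelihood test with Benjamini-Hochberg adjustment over 18067 genes. Since the WT value rests on 5 to 8 counts a library, the size of this fold is less certain than its direction. Within the long pattern the ratio to WT was 85.6 in ΔPod and 137 in K2A, and within the short pattern 124 and 75.7. The long ratios rest on ΔPod 3 or K2A 3 alone, and the short ones on WT 2 alone as the WT library. WT 2 had a length slope of -0.058, against -0.14 to -0.38 in the other short libraries, so these ratios are not fully matched for length pattern. The K2A call was lost without WT 1 (log2 fold change 6.64, adjusted p = 0.0541 by edgeR). The ΔPod call was kept under every alternative run. Without ΔPod 1, K2A 1 and K2A 2, the libraries with the highest urothelium markers, the K2A log2 fold change was 6.84. That fit leaves K2A 3 as the only K2A library, so only the effect size is given.

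It was the only gene of the set that passed the test in either comparison. In ΔPod 1 of the 31 tested genes was called against 0.985% of all tested genes, and in K2A 1 of 31 against 0.847%, in both cases Slc17a2 alone. Of all tested genes 0.399% were called higher and 0.587% lower in ΔPod, and 0.321% and 0.526% in K2A. DESeq2 called 3 and 4 genes of the set, against 5.57% and 5.07% of all. With length class as a term 2 and 3 were called, against 3.96% and 4.09%. The other 6 genes were too low to be tested.

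Its neighbours Slc17a3 and Slc17a1 were lower in all 6 other libraries than in WT, but neither passed the test. Slc17a3 stood at 783, 800 and 812 CPM in WT, at 408, 486 and 282 in ΔPod and at 376, 325 and 227 in K2A. WT libraries lay within a narrow band and above all 6 others. The log2 fold change was -1.03 (SE 0.31, adjusted p = 0.228) in ΔPod and -1.37 (SE 0.31, adjusted p = 0.104) in K2A. In K2A the gene was called without ΔPod 3 (-1.41, adjusted p = 0.0457), and with length class as a term it was called in both comparisons (-1.21, adjusted p = 0.0222 in ΔPod and -1.55, adjusted p = 0.00729 in K2A). Slc17a1 was at 730, 842 and 723 CPM in WT, 515, 447 and 283 in ΔPod and 392, 393 and 454 in K2A. Again no mutant library reached the lowest WT value, with log2 fold changes of -0.88 (SE 0.29, adjusted p = 0.268) and -0.89 (SE 0.29, adjusted p = 0.271). For 23 of the 31 tested genes WT 2 was below both other WT libraries, and Slc17a1 and Slc17a3 were not among these. Slc17a4, which is best known from the intestine, was low, at 3.66, 2.98 and 3.76 CPM in WT, 1.30, 1.31 and 5.06 in ΔPod and 2.67, 2.82 and 2.06 in K2A. All K2A libraries were below WT, while ΔPod 3 was the highest of the 9.

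**Figure D1:**
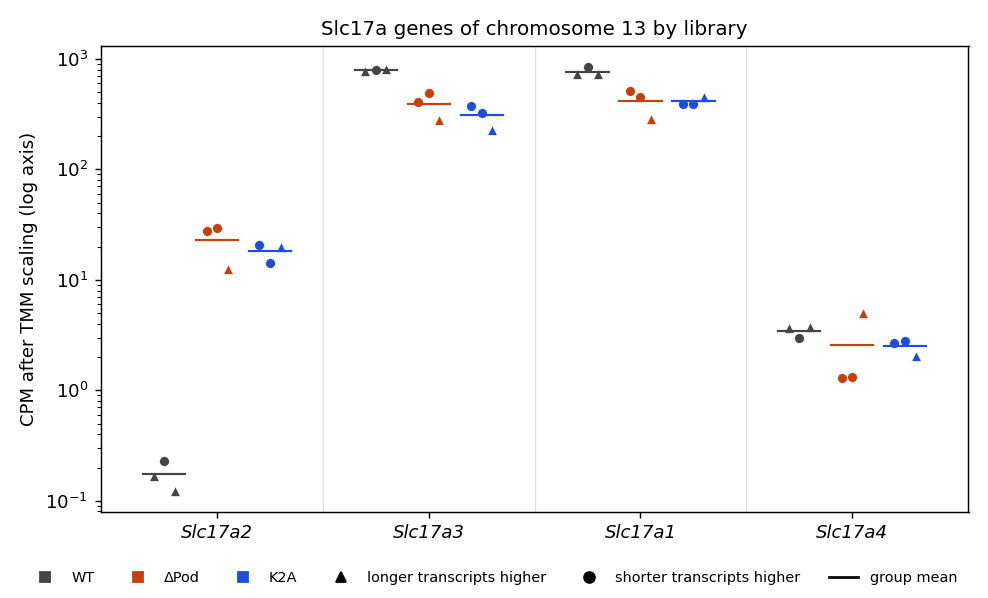
CPM of Slc17a2, Slc17a3, Slc17a1 and Slc17a4 in each of the 9 libraries on a log axis, with triangles for the long pattern, circles for the short one and the group mean as a line. Slc17a2 sits at 0.124 to 0.229 CPM in WT and at 12.4 to 29.1 in the 6 other libraries, whereas Slc17a3 and Slc17a1 are below their WT range in those 6.

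The cluster's counts were therefore shared out differently. Slc17a2 held 0.00803% to 0.0139% of the counts of the 4 genes in WT and 1.92% to 3.03% in the other 6 libraries. Slc17a3 and Slc17a1 kept most of the counts in every library. Another Slc17 gene, Slc17a5 (sialin, which carries sialic acid out of lysosomes), was at 83.0 to 92.9 CPM in WT, 60.4 to 82.9 in ΔPod and 40.9 to 84.2 in K2A. Slc17a9, the vesicular nucleotide transporter, stayed at 0.0362 to 0.678 CPM. Slc17a6, Slc17a7 and Slc17a8, the vesicular glutamate transporters of neurons, were not tested: Slc17a6 had 1 count in all 9 libraries together, Slc17a7 had 0 to 2 counts a library and Slc17a8 0 to 10.

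Among the phosphate transporters, Slc34a1 was by far the most abundant, and its level varied widely between libraries. It lies at chr13:55398187-55415592 on the plus strand (ENSMUSG00000021490.11). Its level was 8724, 4091 and 8657 CPM in WT, 512, 1419 and 5902 in ΔPod and 1150, 1291 and 2459 in K2A. All K2A libraries were below WT, and ΔPod 3 lay inside the WT range. The values ran with the length pattern as well: WT 2 was the lowest WT library, and ΔPod 3 and K2A 3 the highest of their groups. The log2 fold change was -1.45 (SE 0.81, adjusted p = 0.418) in ΔPod and -2.13 (SE 0.83, adjusted p = 0.381) in K2A, so neither passed. Leaving out 1 library at a time gave -2.92 to -0.98 in ΔPod (-2.92, adjusted p = 0.0656, without ΔPod 3) and -2.60 to -1.94 in K2A. Within the long pattern the ratio to WT was 0.679 in ΔPod and 0.283 in K2A, and within the short pattern 0.236 and 0.298. These ratios rest on ΔPod 3, K2A 3 and WT 2 as the only libraries of their group and pattern, and are not fully matched for length pattern. With the length slope as a covariate it was called lower in both, at -1.17 (adjusted p = 0.0391) and -1.39 (adjusted p = 0.0224), in a fit that called 14.1% and 15.8% of all tested genes. Summed proximal tubule markers (12 genes, none at 0) were also lower outside WT, at 13285 to 16735 CPM in WT, 7048 to 10916 in ΔPod and 6131 to 8974 in K2A. This separation rests on Acsm2: without it the other 11 summed to 7630 to 10243 CPM in WT, 6040 to 9323 in ΔPod and 5439 to 7970 in K2A, and the groups overlapped. The part of these markers in the Slc34a1 result was not tested. In whole-kidney RNA, fewer cells of a type and less RNA per cell cannot be told apart.

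The remaining phosphate transporters overlapped between the groups. Slc34a3, the other brush-border Slc34 gene, was at 90.7, 41.2 and 70.1 CPM in WT, 27.7, 39.5 and 87.2 in ΔPod and 51.8, 63.6 and 37.9 in K2A. It was lowest in ΔPod 1 and highest in WT 1. Slc20a2 stood at 69.7, 50.4 and 61.0 CPM in WT, 26.1, 38.5 and 54.4 in ΔPod and 32.4, 30.4 and 76.3 in K2A. Slc20a1 (PiT-1), a widely expressed phosphate transporter, was at 22.2, 15.5 and 21.3, then 8.36, 12.2 and 26.5, then 7.84, 8.89 and 37.1 CPM in the same order. For both Slc20 genes K2A 3 was the highest of the 9 libraries. Slc34a2 (NaPi-IIb), the phosphate transporter of lung and intestine, was scarce at 3.55, 1.69 and 3.09 CPM in WT, 1.88, 2.16 and 4.64 in ΔPod and 2.05, 1.69 and 6.58 in K2A, and its groups overlapped.

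**Figure D2:**
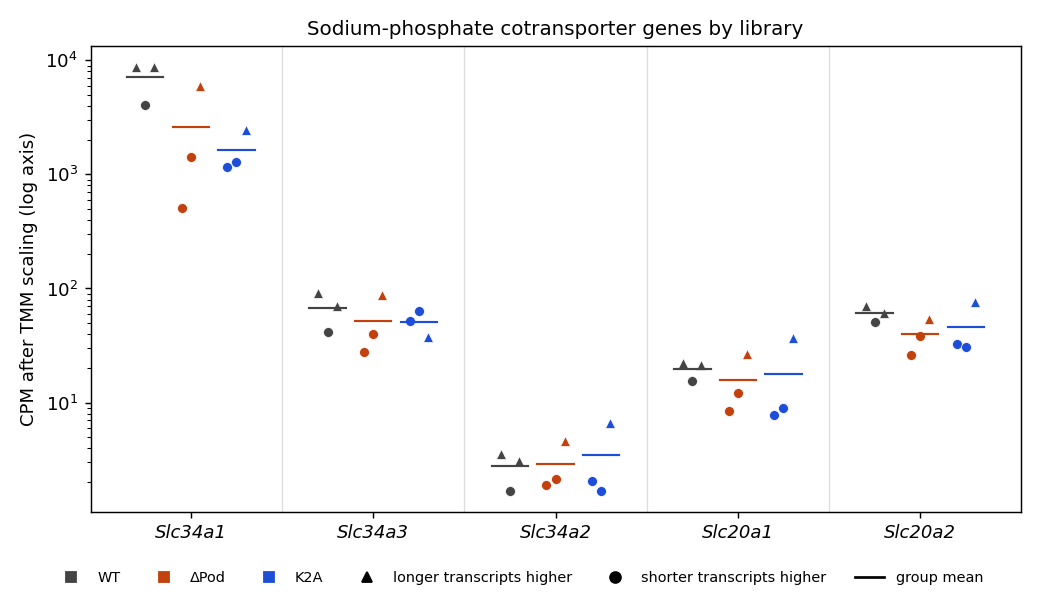
CPM of Slc34a1, Slc34a3, Slc34a2, Slc20a1 and Slc20a2 in each of the 9 libraries on a log axis, with triangles for the long pattern, circles for the short one and the group mean as a line. Slc34a1 runs from 512 to 8724 CPM, and it is the gene of the 5 whose K2A libraries all lie below WT.

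Genes that regulate phosphate uptake or anchor the transporters were followed as well. Of 16 tested genes of a phosphate handling list, 0 passed in either comparison (edgeR), with medians of -0.61 in ΔPod and -0.52 in K2A against 0.08 and 0.09 over all tested genes, and with 2 at an unadjusted p under 0.05 in each. DESeq2 called 2 (Pth1r, lower, and Stc2, higher) in ΔPod and 0 in K2A. Stc2, which encodes the secreted glycoprotein stanniocalcin 2 and was chosen after its values were seen, was at 2.16, 2.20 and 2.82 CPM in WT, 6.11, 5.30 and 4.57 in ΔPod and 4.62, 4.09 and 3.39 in K2A. All 6 values were above WT, and its adjusted p by edgeR was 0.117 and 0.347. Kl, which encodes Klotho, was at 1129, 403 and 1157 CPM in WT, 99.2, 200.2 and 788 in ΔPod and 137, 125 and 385 in K2A. It was lowest in ΔPod 1 and highest in WT 1 and WT 3, and all K2A libraries were below WT. Its log2 fold change was -1.31 (SE 0.82, adjusted p = 0.451) in ΔPod and -2.06 (SE 0.83, adjusted p = 0.412) in K2A. Slc9a3r1 (NHERF1), a scaffold that holds Slc34a1 at the brush border, was at 493, 353 and 474 CPM in WT, 55.9, 167 and 356 in ΔPod and 173, 168 and 246 in K2A. Pth1r, the parathyroid hormone receptor, varied less, at 944, 1037 and 879 CPM in WT, 458, 634 and 668 in ΔPod and 747, 622 and 630 in K2A. No ΔPod or K2A library reached the lowest WT value of Pth1r (log2 fold change -0.70, SE 0.26, adjusted p = 0.318 in ΔPod and -0.52, SE 0.26, adjusted p = 0.559 in K2A).

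Urate carriers outside the set were examined because Slc17a1, Slc17a3 and Slc2a9 are known to carry urate. Of 9 tested genes of a urate list, 1 fell in ΔPod and 0 passed in K2A (edgeR; 4 and 3 had an unadjusted p under 0.05, and DESeq2 called 3 and 2). The medians of the list were -0.39 in ΔPod and -0.31 in K2A. The gene that fell was Slc22a12 (URAT1), the urate reabsorber of the brush border, at 2897, 3201 and 2601 CPM in WT, 595, 962 and 612 in ΔPod and 989, 865 and 1305 in K2A. Every WT library was above every other library, with a log2 fold change of -2.004 (SE 0.32, adjusted p = 0.0299) in ΔPod and -1.46 (SE 0.31, adjusted p = 0.0883) in K2A. The ΔPod call was lost without any 1 of WT 1, WT 2, WT 3, ΔPod 1, ΔPod 2, K2A 1 or K2A 2 (adjusted p from 0.0624 to 0.146). It was also lost with library size scaling (0.0553) and with only the 6 libraries compared (0.0911). Without ΔPod 1, K2A 1 and K2A 2 together, where K2A 3 is the only K2A library, the ΔPod log2 fold change was -1.89. Abcg2, an exporter of urate, was at 579, 475 and 536 CPM in WT, 343, 403 and 353 in ΔPod and 335, 351 and 347 in K2A. It too was below WT in all 6 libraries, without passing the test (adjusted p = 0.357 and 0.348). Slc22a13 and Abcc4, chosen after their values were seen, went the other way without passing. Their log2 fold changes were 0.26 and 0.38 in ΔPod and 0.47 and 0.95 in K2A. Slc2a9 (GLUT9), which moves urate across the basolateral membrane, was at 21.0, 15.1 and 19.0 CPM in WT, 8.54, 12.9 and 25.8 in ΔPod and 12.5, 10.7 and 35.5 in K2A, and its groups overlapped.

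No glucose transporter passed the test, and WT, ΔPod and K2A overlapped for each of them. Slc5a2 was at 850, 430 and 773 CPM in WT, 217, 278 and 860 in ΔPod and 285, 312 and 564 in K2A. ΔPod 3 was the highest of the 9, and ΔPod 1 the lowest. Slc5a1 was at 107, 47.7 and 82.3 CPM in WT, 20.7, 58.0 and 95.3 in ΔPod and 38.3, 42.0 and 194 in K2A. Slc2a2, the exit route for glucose, was at 225, 101 and 206, then 63.0, 102 and 209, then 58.7, 74.4 and 321 CPM. Both had their highest value in K2A 3, and in every group the library or libraries with the short pattern were the lower ones. Slc2a1 (GLUT1), found in most cells, was at 76.0, 38.5 and 58.2 CPM in WT, 21.5, 30.1 and 58.7 in ΔPod and 46.7, 37.7 and 55.6 in K2A. Adjusted p was between 0.467 and 0.931 for these 4 genes in both comparisons. Slc2a4 (GLUT4), the insulin-responsive transporter of fat and muscle, was at 42.6, 33.4 and 33.2 CPM in WT, 27.8, 27.0 and 39.5 in ΔPod and 39.6, 42.5 and 33.7 in K2A. The K2A libraries with the higher Slc2a4 values, K2A 1 and K2A 2, had summed adipocyte markers of 444 and 1158 CPM, against 522 in ΔPod 1, and their part in these values was not tested.

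Slc5a10 (SGLT5), a sodium-coupled mannose and fructose transporter of the proximal tubule, was at 291, 195 and 260 CPM in WT, 85.6, 230 and 204 in ΔPod and 205, 226 and 872 in K2A. K2A 3 was the highest of the 9 libraries, and the other K2A values lay within the WT range. Its log2 fold change in K2A was 0.81 (SE 0.61, adjusted p = 0.732) and -0.25 without K2A 3. Slc2a5 (GLUT5), a fructose transporter, was at 103, 56.7 and 92.9 CPM in WT, 40.5, 92.6 and 112 in ΔPod and 60.9, 80.7 and 284 in K2A. Here the log2 fold change in K2A was 0.75 (SE 0.63, adjusted p = 0.750) and -0.30 without K2A 3. Slc5a9 (SGLT4), which carries mannose and related sugars, was at 18.6 to 48.2 CPM in WT, 7.02 to 44.5 in ΔPod and 10.8 to 31.5 in K2A. K2A 3 was the highest of the 9 libraries for 13 of the 31 tested genes (41.9%), among them Slc2a2, Slc5a1, Slc2a5 and Slc5a10, against 18.4% of all tested genes. Pck1, a rate-limiting enzyme of gluconeogenesis, was at 11520 CPM in K2A 3 and at 250.4 to 2567 in the other 8 libraries. Its relation to the transporter values of K2A 3 was not tested.

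**Figure D3:**
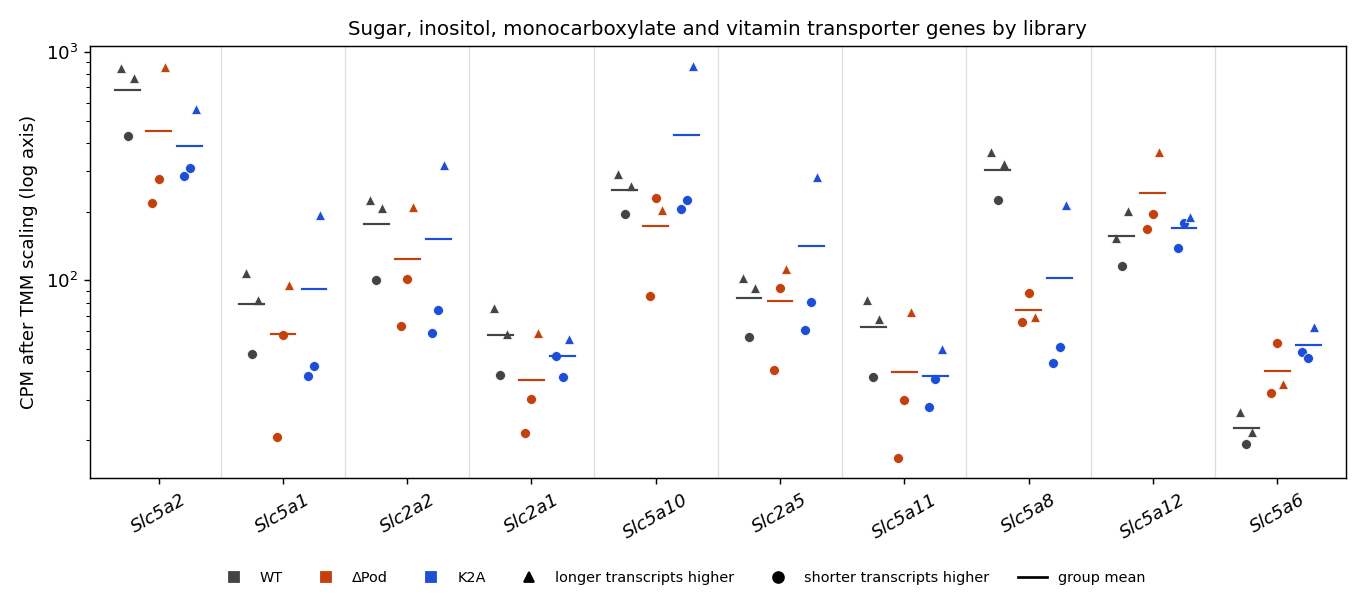
CPM of 10 Slc2 and Slc5 genes in each of the 9 libraries on a log axis, with triangles for libraries with the long pattern, circles for the short one and the group mean as a line. Of these genes Slc5a8 lies below WT and Slc5a6 above it in all 6 other libraries, and K2A 3 stands above the other K2A libraries for Slc5a10 at 872 CPM and for Slc2a5 at 284 CPM.

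Of 12 genes of glucose handling (glycolysis, gluconeogenesis and their regulators), 0 passed in either comparison (edgeR; 2 in ΔPod and 1 in K2A had an unadjusted p under 0.05, and DESeq2 called 1, Sgk1, in ΔPod and 0 in K2A). The medians were 0.15 and 0.34. Sgk1, a kinase induced by salt-retaining hormones and stress, was at 67.2, 67.0 and 94.2 CPM in WT, 193, 204 and 227 in ΔPod and 98.6, 317 and 170 in K2A. All 6 values exceeded the highest WT one, with log2 fold changes of 1.45 (SE 0.42, adjusted p = 0.212) and 1.36 (SE 0.42, adjusted p = 0.241). The other Slc2 genes were low or overlapped: Slc2a8 was at 6.29 to 28.6 CPM, Slc2a12 at 9.68 to 20.8, Slc2a13, a myo-inositol carrier, at 0.868 to 8.57, and Slc2a3, Slc2a6 and Slc2a10 at 0.148 to 1.45. Slc2a7 had 4 to 13 counts a library and was not tested.

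Slc5a8 (SMCT1), which takes up lactate and pyruvate with sodium, lies at chr10:88885992-88929515 (ENSMUSG00000020062.7). It was at 364, 224 and 322 CPM in WT, 65.8, 88.1 and 69.1 in ΔPod and 43.5, 51.1 and 214 in K2A. All 6 libraries were below WT, and K2A 3 lay just below WT 2. The log2 fold change was -2.03 (SE 0.60, adjusted p = 0.228) in ΔPod and -1.56 (SE 0.60, adjusted p = 0.368) in K2A. Without K2A 3, which shares in the estimate of the spread, the gene was called in both comparisons (-2.06, adjusted p = 0.0196 and -2.73, adjusted p = 0.0235). In K2A the log2 fold change was -1.21 without K2A 1 and -1.25 without K2A 2. It was -0.49 without ΔPod 1, K2A 1 and K2A 2, where K2A 3 is the only K2A library. Its size in K2A thus depends on which K2A libraries are used. Slc5a12 (SMCT2), the low-affinity lactate transporter of the same tubule, was at 153, 115 and 201 CPM in WT, 168, 195 and 364 in ΔPod and 139, 179 and 190 in K2A. Its groups overlapped, and ΔPod 3 was the highest. Of 8 genes of monocarboxylate transport and lactate metabolism, 0 passed in either comparison (edgeR; 1 in ΔPod and 2 in K2A had an unadjusted p under 0.05, and DESeq2 called Ldha in ΔPod and Slc16a1 and Ldha in K2A). The medians of the list were -0.08 in ΔPod and -0.11 in K2A. Ldha, a lactate dehydrogenase subunit, was at 958, 799 and 798 CPM in WT, 371, 444 and 389 in ΔPod and 510, 534 and 489 in K2A. No other library reached WT, with log2 fold changes of -1.09 (SE 0.24, adjusted p = 0.0884) and -0.74 (SE 0.23, adjusted p = 0.261). Slc16a4, chosen after its values were seen, went the other way. It was at 114 to 126 CPM in WT and 130 to 243 in the 6 other libraries (edgeR, adjusted p = 0.362 and 0.56).

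Slc5a6 (SMVT), the sodium-coupled transporter of biotin and pantothenate, was the other gene of the set that stood above WT throughout. It lies at chr5:31036036-31048924 on the minus strand (ENSMUSG00000006641.12). Its level was 26.6, 19.2 and 21.7 CPM in WT, 32.2, 53.4 and 35.3 in ΔPod and 48.4, 45.9 and 62.7 in K2A. The log2 fold change was 0.84 (SE 0.30, adjusted p = 0.299) in ΔPod and 1.22 (SE 0.30, adjusted p = 0.139) in K2A. Atraid overlaps it on the opposite strand, and since the strand setting of the counting is not stated, their reads may not be told apart. The same holds for Slc5a10 (with Fam83g and Grap), Slc20a2 (with Smim19) and Slc2a12 (with Tbpl1). Atraid, at 94.3 to 273 CPM in ΔPod, 93.7 to 226 in K2A and 119 to 189 in WT, overlapped between the groups. The inositol transporters overlapped as well. Slc5a3 (SMIT1), which brings myo-inositol into cells under osmotic stress, was at 124, 58.9 and 131 CPM in WT, 59.1, 57.9 and 83.5 in ΔPod and 64.2, 72.6 and 208 in K2A, and it overlaps Mrps6 on the same strand. Slc5a11 (SMIT2) was at 81.7, 37.7 and 68.0, then 16.6, 29.9 and 73.0, then 27.8, 36.9 and 50.2 CPM. Of 7 genes of inositol and osmolyte handling, 0 passed in either comparison (edgeR), 0 had an unadjusted p under 0.05 and DESeq2 called 0. Slc5a7, the choline transporter of cholinergic nerves, had 0 counts in all 9 libraries, for which 3 counts correspond to 0.00886 CPM, and Slc5a5, the thyroid iodide transporter, had 0 to 11 counts a library.

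**Figure D4:**
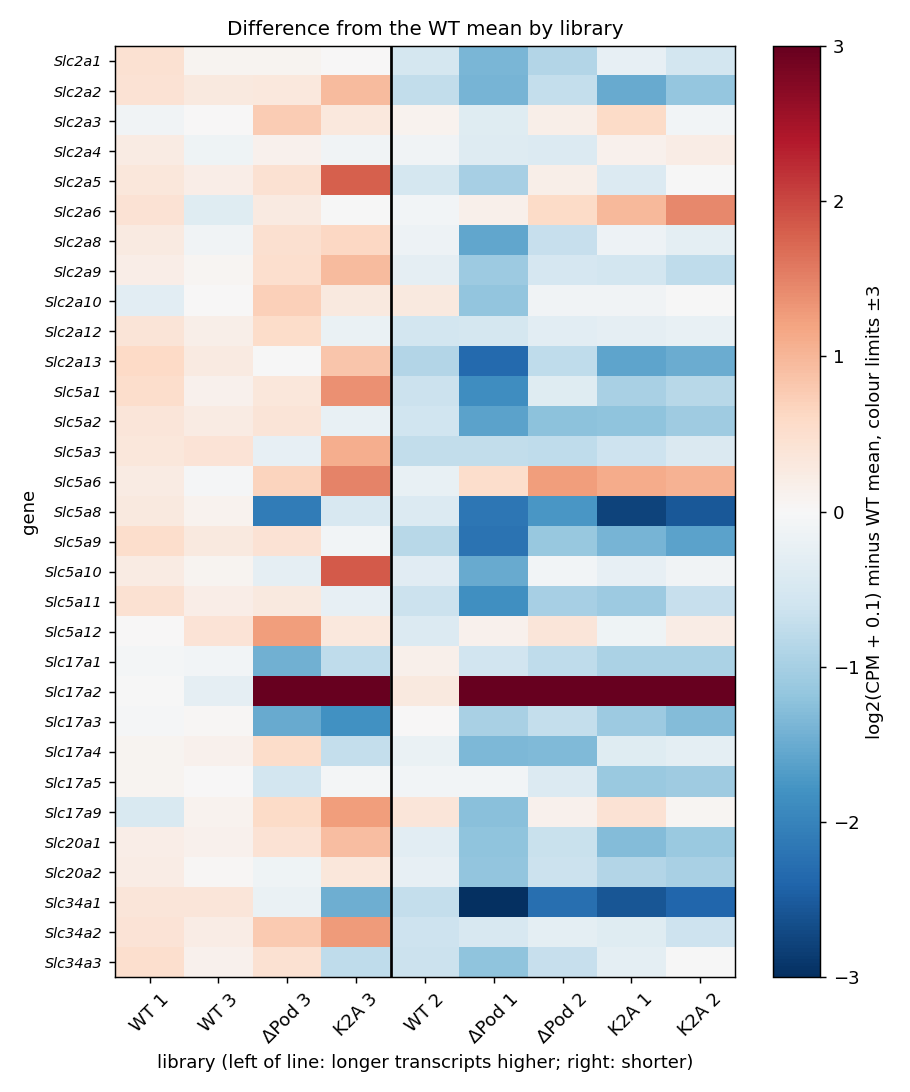
Colour shows log2(CPM + 0.1) of each of the 31 tested genes (rows) minus its WT mean, with the 9 libraries as columns and a line between the 4 with the long pattern (left) and the 5 with the short one. Slc17a2 is high in all 6 ΔPod and K2A libraries, and many other genes are lower to the right of the line, with ΔPod 1 the lowest library for 17 of 31 genes, against 34.3% of all tested genes.

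Levels in WT can be ordered once they are divided by exon length (CPM per kilobase of exon). This is the length of all annotated exons of a gene merged, so the order depends on the annotation. Undivided, the WT mean of Slc17a3 was 798 CPM, above those of Slc17a1 at 765 and Slc5a2 at 685. Slc34a1 came first at 1531 ± 568 CPM per kb (SD, n = 3), 58.1% of the sum over the 37 genes. Slc17a1 followed at 323 ± 28.1 and Slc5a2 at 236 ± 77.1 CPM per kb, and these first 3 did not overlap with their neighbours in the order. Slc17a3 at 118 ± 2.12 and Slc5a10 at 105 ± 20.8 CPM per kb overlapped with each other and were above all that came after. From Slc5a8 (56.9 ± 13.4 CPM per kb) through Slc5a12, Slc2a2, Slc34a3, Slc2a5, Slc17a5, Slc5a11, Slc5a1, Slc2a1, Slc2a4, Slc20a2, Slc5a3, Slc5a9 and Slc2a8 to Slc5a6 (5.64 ± 0.93 CPM per kb), each gene overlapped with the next. Slc17a2 ranked 33rd of 37 in WT at 0.0290 CPM per kb. The share of Slc34a1 in the summed CPM of the set was 55.7% to 67.7% in WT, 20.8%, 37.0% and 65.2% in ΔPod 1 to 3, and 36.0% to 37.7% in K2A. ΔPod 3 thus kept a WT-like share, and the K2A libraries hardly differed from each other.

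Across the whole set, many genes ran with the length pattern of the library within each genotype. Within WT, within ΔPod and within K2A, the libraries with the short pattern were all below those with the long pattern for 23, 23 and 24 of the 31 tested genes, against 43.0%, 47.1% and 44.4% of all tested genes. For 17 genes (54.8%) this held in all 3 groups, against 34.4%. Slc5a8 and Slc5a6 were not among them, but followed the pattern within WT and within K2A. Slc17a2 and Slc17a3 followed it within none of the groups. Median exon length was 4104 bases in the tested genes of the set and 3695 in all tested genes. Medians of the log2 fold change were -0.39 in ΔPod and -0.13 in K2A. The number of genes below 0 was 23 of 31 in ΔPod and 16 of 31 in K2A.

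Counts without overlap between the groups were about as frequent in the set as elsewhere. In ΔPod, 6 of 31 genes did not overlap with WT (19.4%, against 18.2% of all tested genes): Slc17a2 and Slc5a6 above it, and Slc17a1, Slc17a3, Slc17a5 and Slc5a8 below. Over all tested genes 8.73% lay above and 9.47% below. In K2A 7 of 31 did not overlap (22.6%, against 20.1%): the same pair above, and Slc17a1, Slc17a3, Slc17a4, Slc5a8 and Slc34a1 below. Here 11% of all tested genes lay above and 9.18% below. At an unadjusted p under 0.05 there were 5 genes in ΔPod, against 13.8% of all tested genes, and 6 in K2A, against 10.6%. Both comparisons use the same WT libraries.

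**Figure D5:**
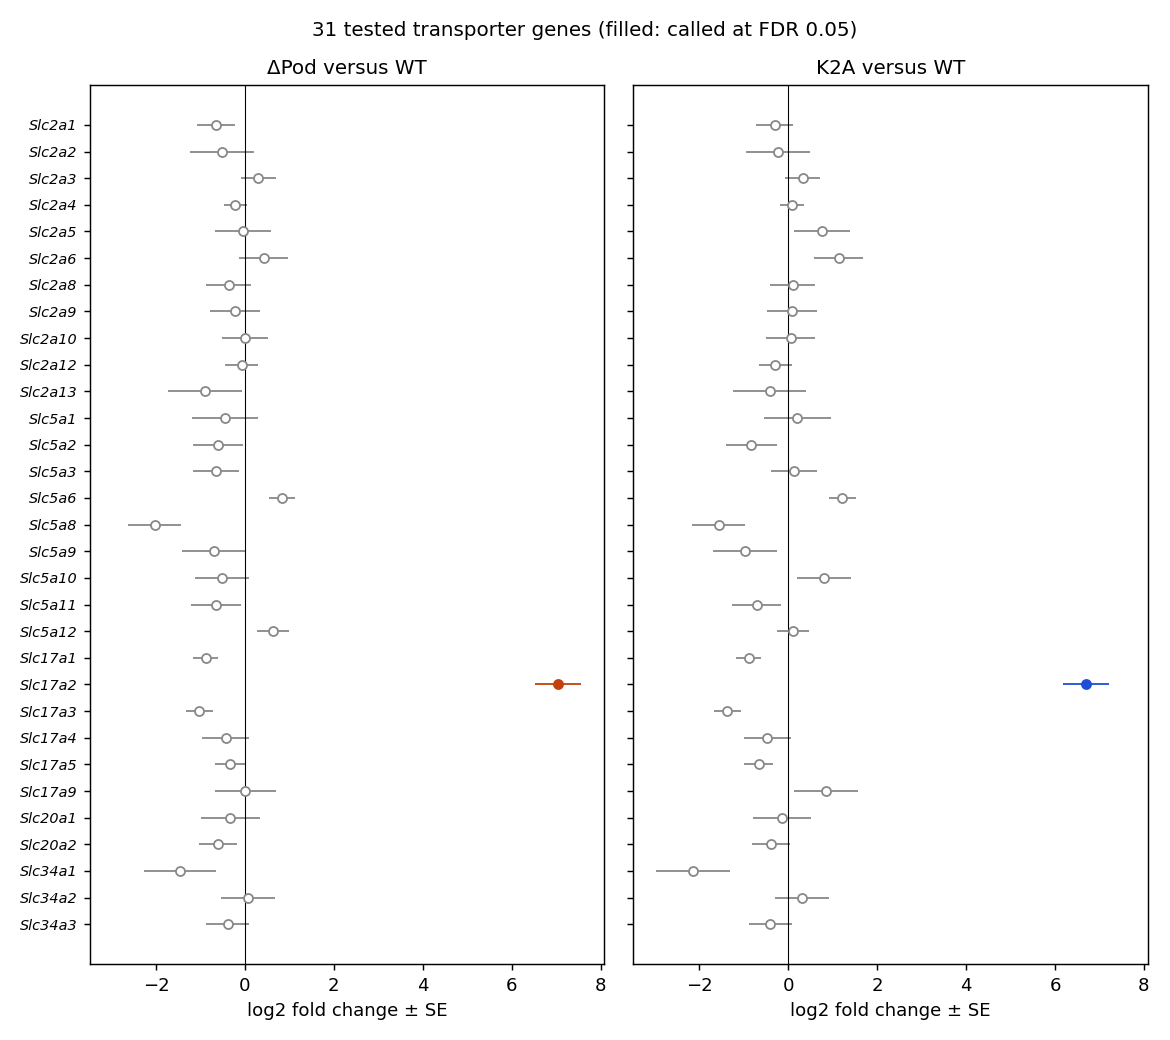
Log2 fold change of the 31 tested genes of the set in ΔPod and in K2A against WT, with horizontal bars of 1 SE either side and a line at 0. Slc17a2 stands apart at 7.04 and 6.70, and filled symbols mark genes that passed the test.

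ΔPod and K2A did not differ detectably from each other for any gene of the set. By edgeR 0 of 31 genes were called, against 0% of all 18067 tested genes, 0 had an unadjusted p under 0.05, against 2.01% of all, and DESeq2 called 0, against 0.106%. The length slope as a covariate called 0 as well, against 0.177%. Every gene of the set overlapped between these groups, while 5.11% of all tested genes did not (3.51% above and 1.61% below). The largest difference was that of Slc5a10, at a log2 fold change of 1.33 (SE 0.62) for K2A over ΔPod, which rests on K2A 3. Slc34a1 had the lowest, at -0.68 (SE 0.80), and 0.76 without ΔPod 3. For Slc17a2 it was -0.35 (SE 0.38).

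Proximal tubule genes outside the set gave the background for these levels. Of 12 proximal tubule markers 1 fell in each comparison, Acsm2, an acyl-CoA synthetase of the proximal tubule, from 5998, 5655 and 6526 CPM in WT to 1008, 1125 and 1593 in ΔPod and 692, 738 and 1004 in K2A. Its log2 fold change was -2.29 (SE 0.31, adjusted p = 0.0153) in ΔPod and -2.90 (SE 0.32, adjusted p = 0.00967) in K2A, a call lost without any 1 of WT 1, WT 2, WT 3 or ΔPod 2 in ΔPod (adjusted p from 0.0751 to 0.103) and of WT 1, WT 3, K2A 1 or K2A 2 in K2A (0.0625 to 0.0782). It was also lost in ΔPod with only the 6 libraries compared (0.0599). Without ΔPod 1, K2A 1 and K2A 2 together, K2A 3 is the only K2A library. There the log2 fold change of Acsm2 was -2.16 in ΔPod and -2.58 in K2A. The other 11 did not pass, and the medians of the list were -0.58 and -0.56. At an unadjusted p under 0.05 there were 3 markers in each comparison, against 13.8% and 10.6% of all tested genes. DESeq2 called 2 (Acsm2 and Slc22a6) in ΔPod and 1 (Acsm2) in K2A, against 5.57% and 5.07% of all. Of those 11, the log2 fold change was above 0 for 4 in ΔPod and 1 in K2A. Gatm, an enzyme of creatine synthesis and chosen after its values were seen, was at 837, 892 and 1026 CPM in WT, 1489, 1515 and 2028 in ΔPod and 1497, 1724 and 284 in K2A, so that ΔPod lay above WT and K2A on both sides of it (adjusted p = 0.463 and 0.843). Slc22a6 (OAT1), the basolateral uptake route for organic anions, was at 1483, 874 and 1497 CPM in WT, 81.8, 227 and 479 in ΔPod and 167, 153 and 682 in K2A. All 6 were below WT (adjusted p = 0.282 and 0.393). Of 8 transcription factors of the proximal tubule, 0 passed in either comparison (edgeR; 1 in ΔPod and 0 in K2A had an unadjusted p under 0.05, and DESeq2 called 0), with medians of -0.78 and -0.62. Hnf4a was at 994, 806 and 1003 CPM in WT, 191, 419 and 1030 in ΔPod and 454, 498 and 976 in K2A. ΔPod 3 and K2A 3 were at or near the WT level of Hnf4a, while ΔPod 1 was the lowest of the 9 libraries.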

How the data were processed

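Polyadenylated RNA of 9 whole-kidney samples had been made into libraries with a kit that marks strand, per the labels' protocols. The authors deposited raw gene counts by symbol, as whole numbers, in a table for each mutant with WT. The submitters' processing notes list Trim Galore 0.6.3, STAR 2.7.3a, featureCounts 2.0.1, DESeq2 1.30.0 and mm10; strand setting and handling of reads with several matches are not given in the sources used here. Of the shared symbols, 3 with differing WT counts were left out. Whether libraries came from separate animals is not labelled, so p-values measure only the spread between these samples, which may be technical.

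The fit used edgeR 4.0.16 in R 4.3.3 (filterByExpr, TMM, quasi-likelihood test, all 9 libraries in 1 fit, Benjamini-Hochberg adjustment over 18067 genes, false discovery rate 0.05). The steps were tested on counts simulated with a capped spread between libraries and without a length pattern. That test does not show how they perform on libraries like these. The log2 fold changes were fitted on these counts. Length pattern is the sign of the slope, over genes, of log2 CPM less the gene's mean over the 9 libraries on log2 exon length. It is thus relative to the other libraries. Exon lengths are from GENCODE vM21 (97.4% of tested symbols matched). Alternatives were RLE and library size scaling, no filter, DESeq2 1.42.0, only the 6 libraries compared, a replicate block, the length class or slope as a term, and leaving out each library. The genes in the set, the lists and the tests were chosen with earlier results of these data known. Values per library are given for 21 transporters fixed by symbol, for genes called, and for genes without overlap with WT at a log2 fold change of at least 1 and a mean log2 CPM of at least 0 (Slc5a6). From each list, called genes and up to 3 more are named, and from the phosphate handling list Stc2 besides. A group difference without overlap has all 3 libraries of a group above or below all 3 of the other. Floors (3 counts) cover counting error only. Some genes are not reported here.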

Additional observations from a re-analysis of the deposited data

How the results depend on the processing

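The count of genes called rested on few libraries and on how the length pattern was handled. In ΔPod it was 1 and became 2 with length class as a term (Slc17a2, Slc17a3), 6 with the length slope as a covariate (these and Slc17a1, Slc34a1, Slc5a12, Slc5a6), 3 with DESeq2 (Slc17a2, Slc17a3, Slc5a8) and 1 to 2 when leaving out each library in turn. A setting added after seeing the data left out the 3 libraries with high urothelium markers, ΔPod 1, K2A 1 and K2A 2. It leaves K2A 3 as the only K2A library, so no count is given for it. In K2A the count was 1 and became 3 with the class term (Slc17a2, Slc17a3, Slc5a6) and 7 with the slope (these and Slc17a1, Slc2a5, Slc34a1, Slc5a8). It was 4 with DESeq2 (Slc17a1, Slc17a2, Slc17a3, Slc5a6) and 0 to 2 when leaving out each library. The cause of these shifts was not tested. Between K2A and ΔPod it was 0 under every alternative run. Over all tested genes DESeq2 called 5.57% and 5.07%, the class term 3.96% and 4.09% and the slope 14.1% and 15.8% in ΔPod and K2A. Other scalings, no filter and only the 6 libraries gave 1 and 1.

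Same-numbered samples of different groups deviated together for numbers 2 and 3 (correlations of their deviations from 0.40 to 0.85) and for ΔPod 1 with K2A 1 (0.76). WT 1 went against ΔPod 1 and K2A 1 (-0.62 and -0.54). All libraries numbered 2 had the short pattern and all numbered 3 the long one. This check therefore does not settle whether the numbers pair the samples, and the main fit did not pair them. The replicate block called 1 gene in ΔPod, 1 in K2A and 0 between them. Under it Slc34a2 turned to -0.037 in ΔPod, and Slc5a1 to -0.25 and Slc2a9 to -0.16 in K2A.

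Log2 fold changes that changed sign belonged to genes that did not pass the test. In ΔPod the slope gave 0.19 for Slc5a1, 0.033 for Slc5a10, 0.16 for Slc2a2, 0.55 for Slc2a5, 0.18 for Slc2a9 and 0.17 for Slc20a1. Slc2a5 in ΔPod was also at 0.047 with library size scaling and 0.36 with the class term. Without the 3 libraries above the urothelium limit of 20 CPM, Slc2a5 was at 0.28 and Slc2a9 at 0.073 in ΔPod. In K2A Slc2a1 was at 0.0096 with the class term and 0.031 with the slope, and Slc2a2 at 0.043 and Slc20a1 at 0.059 with the slope. Leaving out the 3 libraries above the urothelium limit keeps K2A 3 as the only K2A library. There Slc2a2 was at 0.86, Slc2a4 at -0.10, Slc20a1 at 0.93 and Slc20a2 at 0.35 in K2A. Leaving out 1 library at a time gave in ΔPod -0.37 to 0.27 for Slc2a5, -0.81 to 0.064 for Slc2a9, -0.49 to 0.28 for Slc34a2; in K2A -1.03 to 0.57 for Slc5a1, -0.25 to 1.13 for Slc5a10, -1.46 to 0.14 for Slc2a2, -0.014 to 0.18 for Slc2a4, -0.30 to 1.10 for Slc2a5, -0.72 to 0.37 for Slc2a9, -0.62 to 0.63 for Slc34a2, -1.28 to 0.21 for Slc20a1, -0.66 to 0.41 for Slc5a3, -0.083 to 0.30 for Slc5a12; between K2A and ΔPod -1.16 to 0.76 for Slc34a1. In all, 17 of the gene values changed sign for ΔPod, 26 for K2A and 1 for K2A against ΔPod, against 538, 533 and 53 that kept sign and side of the threshold. A further 23 values in ΔPod and 28 in K2A passed the threshold only under the alternative, and 16 and 7 lost it. Against WT, these tallies cover the named transporters and also genes outside the set, among them Pth1r, Kl, Acsm2 and Ybx1.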
